A study of Homo sapiens with 2 samples.

Results

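The clustered protocadherins are 53 protein-coding genes on the plus strand of chromosome 5, taken here by name (PCDHA, PCDHAC, PCDHB, PCDHGA, PCDHGB and PCDHGC followed by a number) from the GENCODE annotation of hg19. They are 53 of the 20162 protein-coding genes of the chromosomes used and fall into an alpha cluster of 15 genes, a beta cluster of 16 and a gamma cluster of 22. The accessible sites at their promoters and across the locus, from the start of PCDHA1 to 100 kb beyond the gamma cluster (chr5:140165721-140992544, hg19), were described in ATAC-seq peak lists. ATAC-seq marks open chromatin by the places where the Tn5 transposase can cut and insert sequencing adapters. One library came from G401 cells, a malignant rhabdoid tumor line that lacks SMARCB1, given the solvent DMSO. The other came from G401 cells given MAK683 at 3 µM for 3 days, an inhibitor of Polycomb repressive complex 2 (PRC2) that acts through its subunit EED and so stops the methylation of histone H3 at lysine 27. Each condition had a single library, so none of the differences could be checked against replicates and no p-values are given.

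Clustered protocadherins are adhesion molecules of the cell surface whose combinations give single neurons an identity. In the alpha and gamma clusters each gene begins with its own promoter and variable exon, which is spliced to constant exons shared by the whole cluster, while the beta genes have single coding exons and no shared ones. Neurons are known to choose a few alternate promoters at random, through binding of CTCF and cohesin to a short conserved element that contains the letters CGCT (the CGCT box) and through distant enhancers, while the C-type genes at the end of the alpha and gamma clusters are used more constantly. DNA methylation is known to keep unchosen promoters silent, and it was not examined here.

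The sequences that distinguish these promoters are given first. Each of the following runs to 300 bases, 250 before and 50 after the transcription start site (TSS), read 5′ to 3′ from the plus strand of GRCh37 (the same coordinates as hg19), with every CGCT and its reverse complement AGCG in capitals. Mean promoter peak height was taken over members with a peak in both libraries. By it PCDHAC2 was highest in the alpha cluster, PCDHB2 in the beta cluster and PCDHGA10 in the gamma cluster. PCDHB2 and PCDHGA10 were the only such members of their clusters, and in DMSO the PCDHGB7 peak was higher than that of PCDHGA10. PCDHA8 had the highest MAK683 to DMSO ratio, and PCDHA1 is the first gene of the locus and had no peak.
PCDHAC2, chr5:140345811-140346110: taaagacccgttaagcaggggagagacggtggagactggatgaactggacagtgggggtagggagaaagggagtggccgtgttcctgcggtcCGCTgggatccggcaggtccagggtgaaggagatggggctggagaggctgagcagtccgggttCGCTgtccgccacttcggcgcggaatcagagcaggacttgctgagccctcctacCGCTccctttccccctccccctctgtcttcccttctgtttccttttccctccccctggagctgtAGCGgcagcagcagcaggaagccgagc
PCDHB2, chr5:140473949-140474248: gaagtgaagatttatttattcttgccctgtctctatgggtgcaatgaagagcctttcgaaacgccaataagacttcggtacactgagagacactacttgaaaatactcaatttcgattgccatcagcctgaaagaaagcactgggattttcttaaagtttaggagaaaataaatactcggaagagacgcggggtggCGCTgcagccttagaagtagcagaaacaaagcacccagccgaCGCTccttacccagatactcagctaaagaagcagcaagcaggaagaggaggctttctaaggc
PCDHGA10, chr5:140792304-140792603: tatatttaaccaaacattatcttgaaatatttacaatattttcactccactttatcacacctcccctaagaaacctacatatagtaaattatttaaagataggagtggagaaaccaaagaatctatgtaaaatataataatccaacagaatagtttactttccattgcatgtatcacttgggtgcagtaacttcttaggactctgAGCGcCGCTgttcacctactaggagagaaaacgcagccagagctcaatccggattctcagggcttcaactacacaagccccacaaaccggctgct
PCDHA8, chr5:140220522-140220821: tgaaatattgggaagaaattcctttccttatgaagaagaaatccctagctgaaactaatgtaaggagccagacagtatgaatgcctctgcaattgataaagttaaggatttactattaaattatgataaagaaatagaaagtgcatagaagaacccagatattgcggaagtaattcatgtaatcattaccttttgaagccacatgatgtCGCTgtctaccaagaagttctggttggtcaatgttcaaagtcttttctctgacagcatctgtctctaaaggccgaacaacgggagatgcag
PCDHA1, chr5:140165475-140165774: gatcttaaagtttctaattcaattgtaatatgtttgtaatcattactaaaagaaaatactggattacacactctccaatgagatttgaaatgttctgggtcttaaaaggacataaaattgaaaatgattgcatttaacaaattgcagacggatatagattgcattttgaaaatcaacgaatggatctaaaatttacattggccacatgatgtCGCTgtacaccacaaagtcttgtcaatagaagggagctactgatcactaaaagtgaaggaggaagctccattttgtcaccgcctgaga

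The letters CGCT, on either strand, were in 51 of the 53 member promoters (96.2%), against 82.0% of all protein-coding promoters of the same length. A window of 100 bases before the TSS on the transcript strand, chosen after values had been seen, held CGCT in 47 members (88.7%) and in 35.8% of all protein-coding promoters. In the alpha cluster 13 of 15 members had it there, in the beta cluster 14 of 16 and in the gamma cluster 20 of 22. All 10 members with a promoter peak in either library and 37 of the 43 without one held the letters in that window. PCDHA9 and PCDHGC5 had no CGCT in their 300 bases on either strand. A stricter form of a CTCF-type core, AGNNGGCGC on either strand (N is any base), was in 3 members (5.66%) against 13.8% of all protein-coding promoters. The median GC content was 39.7% for members and 63.7% for all protein-coding promoters, and these shares were not matched for it. Around the summits of all DMSO peaks, in windows of 300 bases, CGCT was in 51.7% and AGNNGGCGC in 5.96%. These matches describe letters only and are not measured binding.

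One CGCT before the TSS is shown for each of 7 members as 24 bases, with CGCT in capitals and the distance counted from its first letter, to let members with and without a peak be compared side by side. PCDHA1, PCDHB3 and PCDHGA1 had no peak in either library, PCDHA8, PCDHB2 and PCDHGA10 had one in both and PCDHB14 had one in the DMSO library only.
PCDHA1, chr5:140165675-140165698, plus strand, 38 bases before the TSS: gccacatgatgtCGCTgtacacca
PCDHA8, chr5:140220719-140220742, plus strand, 41 bases before the TSS: gccacatgatgtCGCTgtctacca
PCDHB2, chr5:140474133-140474156, plus strand, 54 bases before the TSS: gacgcggggtggCGCTgcagcctt
PCDHB3, chr5:140479981-140480004, plus strand, 64 bases before the TSS: aacgcatggtggCGCTgttgacta
PCDHB14, chr5:140602839-140602862, plus strand, 64 bases before the TSS: gacacatggtggCGCTacaggata
PCDHGA1, chr5:140709974-140709997, plus strand, 95 bases before the TSS: gactgtgggcgcCGCTgttcacta
PCDHGA10, chr5:140792502-140792525, plus strand, 40 bases before the TSS: gactctgagcgcCGCTgttcacct

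Peaks of the G401 libraries were at few of these promoters. A peak reached within 1 kb of the TSS of 10 of the 53 members in the DMSO library (18.9%) and of 8 in the MAK683 library (15.1%), while it did so for 69.1% of all protein-coding genes in DMSO and 73.7% in MAK683. The alpha cluster held most of them, with the same 6 of 15 genes (40.0%) in both libraries: PCDHA4, PCDHA8, PCDHA11, PCDHA12, PCDHAC1 and PCDHAC2. In the beta cluster PCDHB2 and PCDHB14 had a peak in DMSO, 2 of 16 (12.5%), and PCDHB2 alone in MAK683, 1 of 16 (6.25%). In the gamma cluster PCDHGA10 and PCDHGB7 had a peak in DMSO, 2 of 22 (9.09%), and PCDHGA10 alone in MAK683, 1 of 22 (4.55%). The other 43 members had no listed peak in either library. The shares of all protein-coding genes above were not matched for GC content. Under 45% GC, where 41 of the members lie, members and all protein-coding genes stood at 14.6% and 12.9% in DMSO. In MAK683 they stood at 12.2% and 21.0%.

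**Figure D1:**
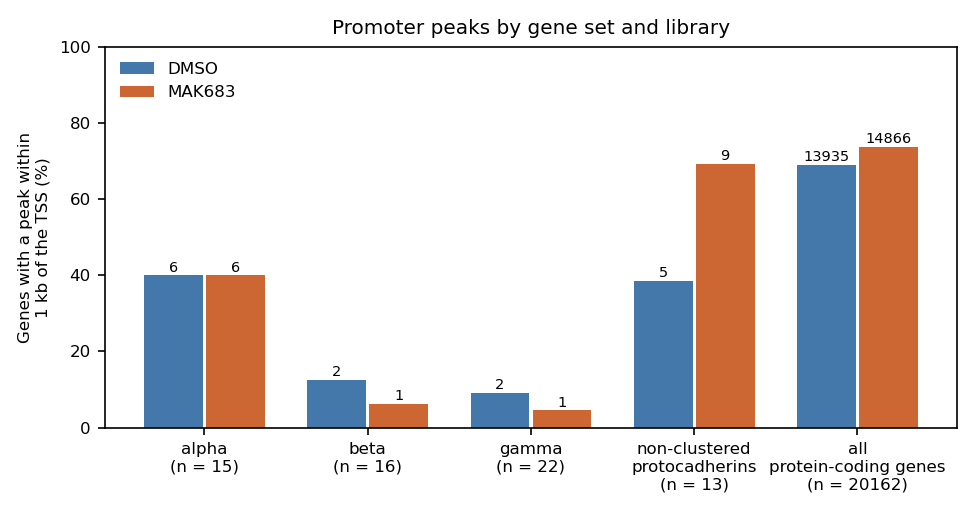
Percent of genes with an ATAC-seq peak within 1 kb of the TSS in the DMSO (blue) and MAK683 (orange) libraries, for each protocadherin cluster, for the protocadherins outside the clusters and for all protein-coding genes; the number over each bar is the count of genes with a peak. The alpha cluster stands at 40.0% in both libraries and the beta and gamma clusters at 12.5% or less.

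A promoter without a listed peak is one that stayed under the peak caller's limit at this depth, and low accessibility there cannot be told from none. The lowest peak listed in either library had 6 tags (sequenced ends) at its summit, which is 0.361 tags per 1000000 tags kept after filtering (RPM) in DMSO and 0.328 RPM in MAK683. The libraries held 16598348 tags after filtering for DMSO and 18265284 for MAK683, so that 1 tag was 0.0602 and 0.0547 RPM. Heights below are in RPM with exact (Clopper-Pearson) 95% intervals. With 1 library per group, all intervals cover counting error only. They can be too narrow even for that, because duplicate molecules were not marked by identifiers and the reads are not independent. The genes resemble each other, and reads from a stretch with a copy elsewhere in the locus cannot be placed with certainty: of the 100-base stretches within 1 kb of the TSS, 3.94% for PCDHA8, 3.31% for PCDHA12 and 5.42% for PCDHGB7 had such a copy, and the other 7 members with a peak had none. A lower height in such a pool of cells can come from fewer cells with an open promoter or from less opening per cell, which cannot be told apart. With 1 library per group, neither can be told apart from a difference between the libraries as a whole.

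The C-type genes of the alpha cluster had the highest promoter peaks of all members. PCDHAC1 had 40 tags in DMSO, 2.41 RPM (1.72 to 3.28), and 21 in MAK683, 1.15 RPM (0.712 to 1.76). PCDHAC2, an isoform used by serotonergic neurons, had 40 tags in DMSO, 2.41 RPM (1.72 to 3.28), and 29 in MAK683, 1.59 RPM (1.06 to 2.28). Both genes lay above the median of 1.93 RPM over all protein-coding promoters with a peak in DMSO, at percentile 71.1 of those heights. In MAK683 the percentiles were 39.3 for PCDHAC1 and 66.4 for PCDHAC2, against a median of 1.31 RPM. The PCDHAC1 peak (chr5:140305466-140306537 in DMSO) had its summit 16 bases after the TSS, in the untranslated part of the first exon, and the PCDHAC2 peak (chr5:140345329-140348923 in DMSO) was the widest at a member promoter.

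The alternate alpha genes, the exons among which neurons choose, were lower. PCDHA4 had 16 tags in DMSO, 0.964 RPM (0.551 to 1.57), and 14 in MAK683, 0.766 RPM (0.419 to 1.29). PCDHA8 had 13 tags, 0.783 RPM (0.417 to 1.34), and 14 tags, 0.766 RPM (0.419 to 1.29), in the same order. The intervals of the libraries overlapped at both genes, and at PCDHA8 they nearly coincided. PCDHA11 had 17 tags in DMSO, 1.02 RPM (0.597 to 1.64), and 16 in MAK683, 0.876 RPM (0.501 to 1.42). PCDHA12 had 17 tags in DMSO, 1.02 RPM (0.597 to 1.64), and 11 in MAK683, 0.602 RPM (0.301 to 1.08). Among the 4 genes, PCDHA12 had the widest gap between the libraries, and its intervals still overlapped. The remaining alternate genes, PCDHA1 to PCDHA3, PCDHA5 to PCDHA7, PCDHA9, PCDHA10 and PCDHA13, had no peak.

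In the beta cluster, PCDHB2 had 19 tags in DMSO, 1.14 RPM (0.689 to 1.79), and 16 in MAK683, 0.876 RPM (0.501 to 1.42). PCDHB14 had 12 tags in DMSO, 0.723 RPM (0.374 to 1.26), on a peak at chr5:140602776-140602984, and no peak in MAK683. In the gamma cluster, PCDHGA10 had 9 tags in DMSO, 0.542 RPM (0.248 to 1.03), and 9 in MAK683, 0.493 RPM (0.225 to 0.935). The PCDHGA10 peaks of the libraries did not overlap each other, with summits 145 bases after the TSS in DMSO and 439 after it in MAK683. PCDHGB7 had 13 tags in DMSO, 0.783 RPM (0.417 to 1.34), on a peak at chr5:140797108-140797548, and no peak in MAK683. PCDHGC3, PCDHGC4 and PCDHGC5, the C-type genes of the gamma cluster, of which PCDHGC4 is known for neuron survival in mice, had no peak in either library, unlike PCDHAC1 and PCDHAC2.

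**Figure D2:**
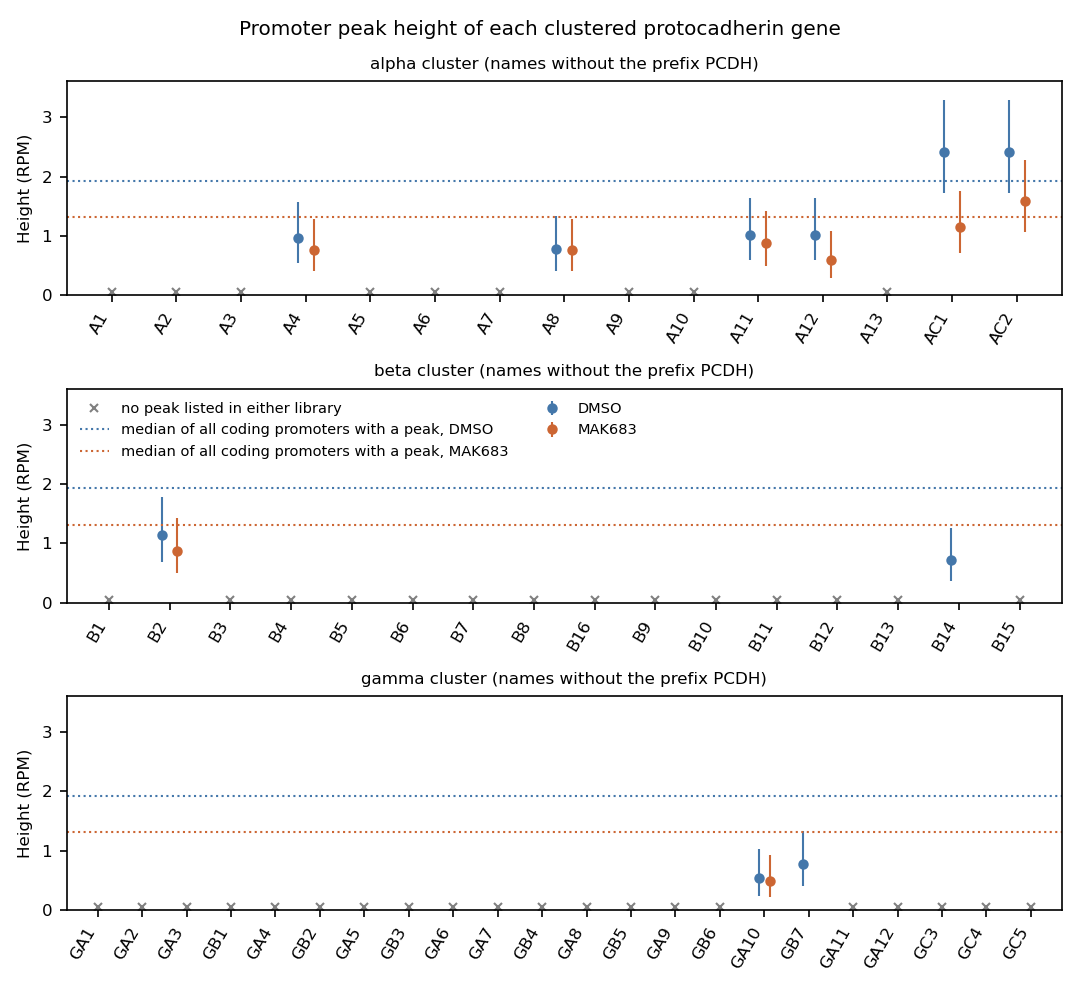
Height of the tallest peak within 1 kb of the TSS (RPM) for each member, in genome order, in the DMSO (blue) and MAK683 (orange) libraries, with exact 95% counting intervals; crosses mark members with no listed peak in either library and dotted lines the medians over all protein-coding promoters with a peak (1.93 and 1.31 RPM). PCDHAC1 and PCDHAC2 at 2.41 RPM in DMSO are the only members above the DMSO line.

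The summits lay close to the start sites. Over the members with a peak the median distance from TSS to summit was 74 bases in DMSO and 130 in MAK683, against 151 and 172.5 over all protein-coding promoters with a peak. In DMSO the summits of PCDHA4, PCDHB2, PCDHB14 and PCDHGB7 were 39, 51, 60 and 35 bases before the TSS, with a CGCT beginning 73, 54, 64 and 54 bases before it in the same genes. Those of PCDHA8, PCDHA11 and PCDHA12 were 543, 277 and 277 bases after it, within the coding part of the variable exon. In these genes a CGCT began 41, 58 and 48 bases before the TSS. The other DMSO summits were 88 bases before the TSS at PCDHAC2, and 16 and 145 after it at PCDHAC1 and PCDHGA10. Within 100 bases before the TSS, CGCT began at 95 and 41 in PCDHAC2, at 63, 29 and 14 in PCDHAC1 and at 40 in PCDHGA10. PCDHB2 and PCDHB14 had a second CGCT, 12 and 16 bases before the TSS. In MAK683 the summits of PCDHA4 and PCDHA11 were 33 and 16 bases before the TSS, and those of PCDHAC1 and PCDHB2 9 and 73 after it. The MAK683 summits of PCDHA8, PCDHGA10, PCDHA12 and PCDHAC2 were farther, 187, 439, 541 and 585 bases after the TSS. Whether summits follow CGCT was not tested.

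Comparing the libraries, all 8 members with a peak in both had a lower height in RPM in MAK683, with a median log2 ratio of -0.36. Before scaling by depth, PCDHA8 had more tags in MAK683 (14) than in DMSO (13), and PCDHGA10 had 9 in each. A lower height was the rule at promoters in general: 87.4% of all protein-coding promoters with a peak in both libraries were lower in MAK683, with a median log2 ratio of -0.48 (95% interval of the median -0.48 to -0.47). Relative to that median the members' median was 0.12, and the direction turned for 5 of the 8, PCDHA4, PCDHA8, PCDHA11, PCDHB2 and PCDHGA10. The cluster medians were -0.47 for alpha (6 genes), -0.39 for beta (PCDHB2 alone) and -0.14 for gamma (PCDHGA10 alone). The beta and gamma values rest on 1 gene each, and the PCDHGA10 peaks of the libraries did not overlap, so the clusters could not be ranked by them.

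PCDHAC1 had the lowest ratio of the members, with a log2 value of -1.07 (-1.83 to -0.31), or 0.477 of its DMSO height. It was the only member at least 2-fold lower in MAK683, 1 of 8, where 6.52% of all protein-coding promoters were, and the call was lost without depth scaling (log2 -0.93) and by fold enrichment (log2 -0.98). None of the 8 was at least 2-fold higher, where 1.09% of all were. Relative to the median of all promoters the ratio of PCDHAC1 was -0.59, and it stood at percentile 4.37 of all ratios. PCDHA12 followed at -0.77 (-1.86 to 0.33) and PCDHAC2 at -0.60 (-1.29 to 0.09), with intervals that include 0. PCDHA8 had the highest ratio at -0.03 (-1.12 to 1.06). The intervals of PCDHA4 (-0.33), PCDHA11 (-0.23), PCDHB2 (-0.39) and PCDHGA10 (-0.14) also included both 0 and the median of all promoters. At these tag counts PCDHAC1 was the one member whose counting interval left out 0, and its interval included the median of all promoters.

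Of the 10 members with a peak in either library, 2 had it in DMSO only (PCDHB14 and PCDHGB7), where 2.70% of all protein-coding promoters with a peak did. None had it in MAK683 only, where 8.79% did. The heights of PCDHB14 and PCDHGB7, 12 and 13 tags, compare with 6 tags at the lowest peak listed. They stood at percentiles 8.78 and 10.5 of the DMSO heights of all protein-coding promoters with a peak. The share of 2.70% was not matched for height.

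**Figure D3:**
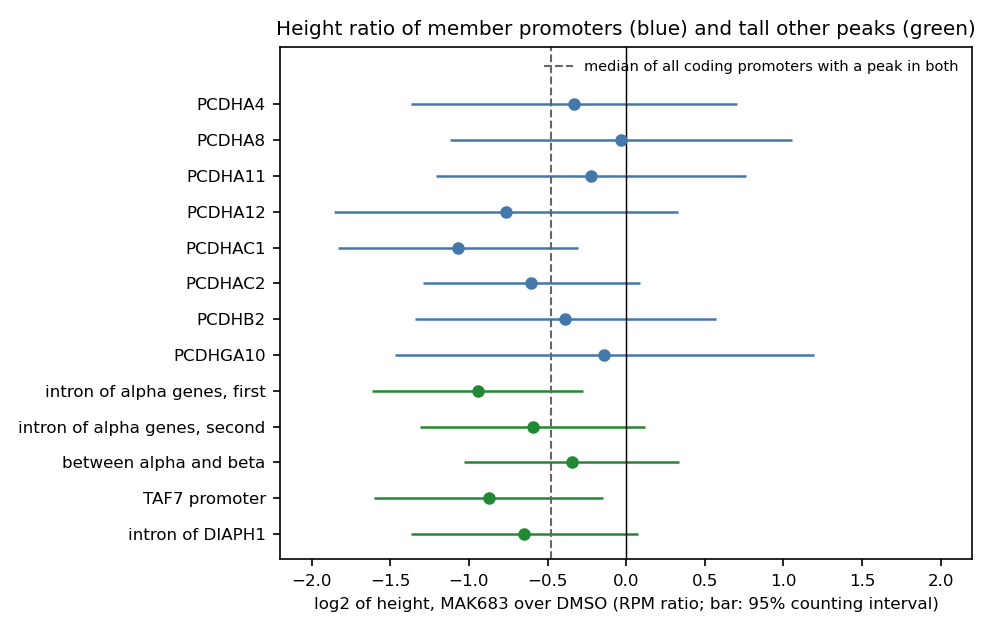
Log2 of the MAK683 to DMSO height ratio for the 8 members with a peak in both libraries (blue) and for the 5 tallest regions away from member promoters (green), with 95% counting intervals; the solid line is 0 and the dashed line the median of all protein-coding promoters (-0.48). The intervals of PCDHAC1, the first intronic region of the alpha genes and the TAF7 promoter lie below 0, and every interval reaches the dashed line.

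Away from the member start sites, tall peaks lay at the 3′ end of the alpha cluster and between the alpha and beta clusters. All alpha transcripts share an intron between their last constant exons, which in PCDHA1 are exon 3 (chr5:140362060-140362148) and exon 4 (chr5:140389212-140391932), and the mouse form of this cluster is known to hold one enhancer in that intron and another downstream of the last constant exon. The positions here were not matched to published enhancer coordinates. In that intron a region at chr5:140380680-140383211 had 49 tags in DMSO, 2.95 RPM (2.18 to 3.90), and 28 in MAK683, 1.53 RPM (1.02 to 2.22). It was the tallest peak of the whole locus in DMSO, above every member promoter there, and stood at percentile 98.5 of all DMSO peaks. Its log2 ratio was -0.95 (-1.62 to -0.28). A neighboring region of the same intron, chr5:140383290-140385181, had 37 tags in DMSO and 27 in MAK683, 2.23 and 1.48 RPM, with a log2 ratio of -0.59 (-1.31 to 0.12). Between the alpha and beta clusters, a region whose DMSO summit was 10451 bases before the PCDHB1 start (chr5:140419176-140421022) had 37 tags in DMSO and 32 in MAK683, 2.23 and 1.75 RPM, with a log2 ratio of -0.35 (-1.03 to 0.34). It covers the start of a long noncoding RNA gene (ENSG00000288892) and was the tallest peak of the locus in MAK683.

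The 300 bases around the DMSO summit of the tallest intronic region, from the plus strand of GRCh37 and shown because it exceeded all member promoters in DMSO (in MAK683 PCDHAC2, with 29 tags, was higher), held AGCG, the reverse complement of CGCT, at 2 places and had a GC content of 56.3%.
Intronic region of the alpha genes, chr5:140381449-140381748: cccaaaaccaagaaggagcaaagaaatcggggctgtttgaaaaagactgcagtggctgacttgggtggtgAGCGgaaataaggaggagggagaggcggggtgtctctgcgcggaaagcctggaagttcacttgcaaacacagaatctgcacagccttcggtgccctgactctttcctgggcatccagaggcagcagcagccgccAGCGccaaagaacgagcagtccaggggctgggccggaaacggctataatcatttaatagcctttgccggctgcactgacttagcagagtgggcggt

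The gamma cluster had a lower counterpart. In the intron between exon 3 (chr5:140884960-140885048) and exon 4 (chr5:140890514-140892542) of PCDHGA1, shared by the gamma transcripts, a region at chr5:140886952-140889645 had 17 tags in DMSO and 15 in MAK683, 1.02 and 0.821 RPM. A region around the end of the last gamma exon, chr5:140891067-140895013, had 21 and 15 tags, 1.27 and 0.821 RPM. Both were below the intronic regions of the alpha genes in each library. The other tall regions of the locus lie at or within neighboring genes, and which genes they act on was not tested. One at chr5:140699820-140700988 lies at the promoter of TAF7, a general transcription factor subunit encoded between the beta and gamma clusters, with 40 and 24 tags (2.41 and 1.31 RPM) and a log2 ratio of -0.88 (-1.61 to -0.14). Another at chr5:140904112-140905731 lies in an intron of DIAPH1, a formin that nucleates actin, with 37 and 26 tags (2.23 and 1.42 RPM) and a log2 ratio of -0.65 (-1.37 to 0.08). The protein-coding TSS nearest to its DMSO summit was that of PCDHGC5, at 35865 bases.

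**Figure D4:**
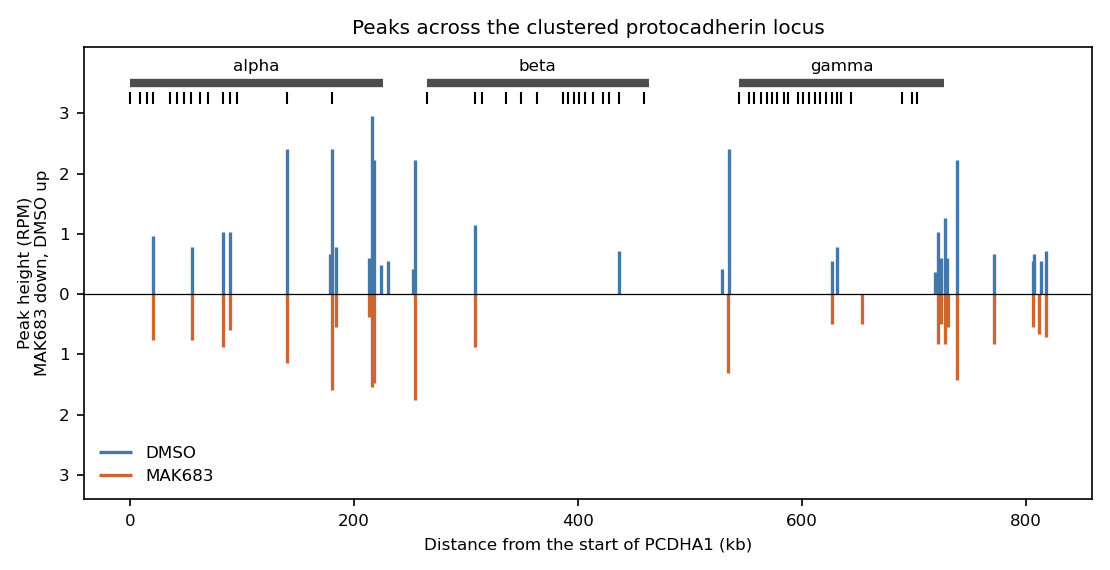
Height (RPM) of each peak by its distance from the start of PCDHA1 (kb), with DMSO upward in blue and MAK683 downward in orange; gray bars mark the alpha, beta and gamma clusters and black ticks the 53 start sites. The tall peaks stand at PCDHAC1 and PCDHAC2, at the end of the alpha cluster and near the borders of the clusters, and the beta and early gamma start sites have almost none.

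Most of the beta and gamma start sites lay in long stretches with no peak in either library. One of 127.8 kb held 12 start sites, from PCDHB3 to PCDHB13, and one of 91.5 kb held 15, from PCDHGA1 to PCDHGB6. A stretch of 65.2 kb held the 3 gamma C-type genes, and others of 91.7 and 52.7 kb held PCDHB15 and PCDHB1. Together they covered 32 of the 38 beta and gamma start sites. Counted over the clusters, the alpha cluster (226 kb) had 12 peaks in DMSO and 14 in MAK683, the beta cluster (198 kb) 2 and 1, and the gamma cluster (182 kb) 7 and 7. As a density, alpha had 5.30 and 6.19 peaks per 100 kb, beta 1.01 and 0.505 and gamma 3.84 and 3.84, against 3.68 and 5.21 over chromosomes 1 to 22, X and Y. Beta was thus the poorest of the clusters in both libraries. The alpha peaks covered 14.2 kb in DMSO and 11.2 kb in MAK683, with median lengths of 877.5 and 471.5 bases. The higher count of alpha peaks in MAK683 was thus not a greater open length.

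Over the whole locus (827 kb) there were 34 peaks in DMSO and 31 in MAK683, while the genome held 114060 and 161184. Of these, 21 of the DMSO peaks (61.8%) overlapped a MAK683 peak and 26 of the MAK683 peaks (83.9%) overlapped a DMSO peak, where the genome had 56.2% and 43.2%. When overlapping peaks were merged there were 37 regions, 19 shared, 13 in DMSO only and 5 in MAK683 only. Over all chromosomes the one-library regions leaned the other way, with 49995 in DMSO only and 91532 in MAK683 only. The 19 shared regions had a median log2 ratio of -0.39 and 18 of them (94.7%) were lower in MAK683, against -0.33 and 76.2% of 57983 shared regions of the genome. The exception was in an intron of DIAPH1 (log2 0.31, 11 and 15 tags). Outside the member promoters, the tallest regions in 1 library only were low: in DMSO 0.663 RPM about 1540 bases before PCDHAC2, 0.663 RPM in DIAPH1 and 0.602 RPM in the shared alpha intron, and in MAK683 0.657 and 0.547 RPM in DIAPH1 and 0.493 RPM near the pseudogene PCDHGB9P.

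The base composition of member promoters differed from that of promoters in general. The median GC content of the 300 bases was 39.7% for the 53 members, against 63.7% for all protein-coding genes, with a median of 7 CpG dinucleotides against 23. Members with a peak in either library had a median GC of 39.3% and those without 39.7%, while over all protein-coding genes the medians were 66.0% with a peak and 51.0% without. The C-type genes were the exceptions, at 66.0% for PCDHAC1, 63.0% for PCDHAC2, 59.0% for PCDHGC3, 60.7% for PCDHGC4 and 55.7% for PCDHGC5. Among promoters under 45% GC, 6 of 41 members (14.6%) had a peak in DMSO and 5 (12.2%) in MAK683, against 12.9% and 21.0% of the 2101 protein-coding genes in that range. In that range the members' share was near that of all genes in DMSO and below it in MAK683. From 45 to 55% GC, 2 of 7 members (28.6%) had a peak in DMSO and 1 (14.3%) in MAK683, where 42.3% and 52.9% of all did. From 55 to 65% GC, 1 of 4 members (PCDHAC2, 25.0%) had a peak in each library, where 74.1% and 78.1% of all did, and the 3 without one were PCDHGC3, PCDHGC4 and PCDHGC5. PCDHAC1 was the only member of at least 65%.

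**Figure D5:**
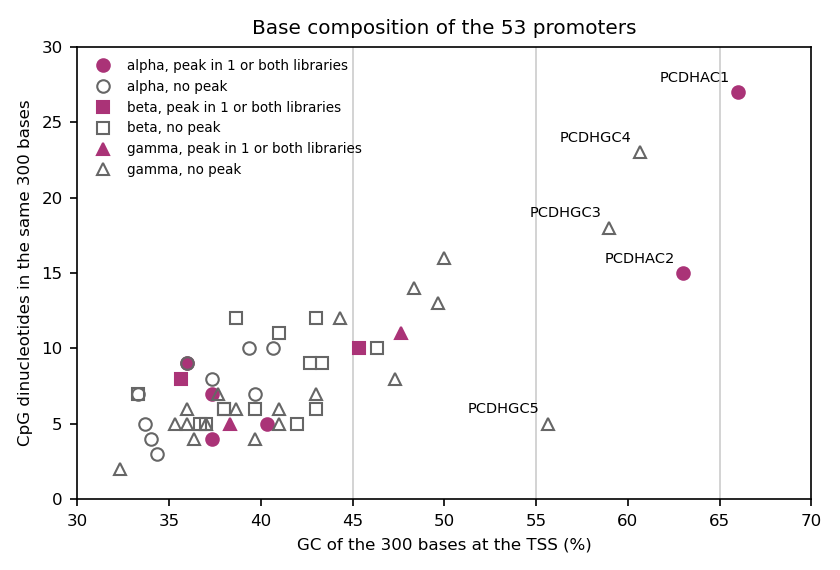
GC content (%) against the number of CpG dinucleotides in the 300 bases at the TSS of each of the 53 members, with circles for alpha, squares for beta and triangles for gamma, filled where a peak was listed in either library; gray lines mark 45, 55 and 65% GC. The 5 C-type genes lie above 55% GC, and of these only PCDHAC1 and PCDHAC2 are filled.

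The protocadherins encoded outside the clusters had more promoter peaks in MAK683 than in DMSO. Of 13 such genes, 5 had a promoter peak in DMSO (38.5%) and 9 in MAK683 (69.2%), against 69.1% and 73.7% of all protein-coding genes. PCDH7, PCDH8, PCDH10 and PCDH20 had one in MAK683 only, 4 of the 9 with a peak in either library, where 8.79% of all did. The 5 with a peak in both had a median log2 ratio of 0.18, and 3 of them were higher in MAK683. The highest was PCDH15, a protein of the hair cell tip link, with 12 tags in DMSO and 22 in MAK683 (0.723 and 1.20 RPM, log2 0.74, -0.28 to 1.75), an interval that includes 0. None of the clustered members had a peak in MAK683 only. These are counts in 1 library per group, and the difference between the sets was not tested.

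The genes that act on the clusters had open promoters throughout. All 11 of CTCF, the cohesin subunits RAD21, SMC1A, SMC3, STAG1 and STAG2, the cohesin loader NIPBL, the cohesin release factor WAPL, and the silencing factors SMCHD1, DNMT3B and SETDB1 had a promoter peak in both libraries, with a median log2 ratio of -0.51 and 10 lower in MAK683, near the -0.48 and 87.4% of all protein-coding promoters. Of all 20162 protein-coding genes, 13523 had a promoter peak in both libraries. CTCF had 40 tags in DMSO and 29 in MAK683, 2.41 and 1.59 RPM. Of 13 genes beside or inside the locus, 11 had a peak in both libraries. HARS1 and HARS2 shared a peak, as did HDAC3 and RELL2, and over the 9 distinct peaks 8 were lower in MAK683 and the median log2 ratio was -0.48, equal to that of all protein-coding promoters. Among these genes ZMAT2, a splicing factor gene, was at least 2-fold lower (30 and 14 tags, log2 -1.24). Over all protein-coding promoters with a peak in both libraries, 6.52% were.

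As a check of the cell line, SMARCB1, which the line lacks, had no promoter peak in either library. Of all 20162 protein-coding genes 4884 had none either, so this check by 1 gene is weak. It does not tell the DMSO and MAK683 libraries apart. Promoter peaks of other cell types' markers were counted: neuron markers 4 of 6 in DMSO and 5 of 6 in MAK683, blood 1 and 0 of 3, endothelium 0 and 0 of 1, and epithelium 2 and 2 of 2. Of all protein-coding genes, 69.1% had a promoter peak in DMSO and 73.7% in MAK683, and the neuron counts were near those shares. Both libraries came from the cultured line G401, and the marker counts were not related to the protocadherin values.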

How the data were processed

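Peak lists of 2 ATAC-seq libraries of G401 cells were used, 1 per group. The study's methods name Trim-galore for trimming and Bowtie2 for alignment to hg19. The authors ran MACS 2.1.1.20160309, per the file headers, on each library separately (tags shifted by -100 bp and extended to 200 bp, no control, no local background, 1 tag per position, q cutoff 0.05, alignments read as single ends), while the submitters' processing notes name MACS2 2.1.0 and 2.2.7.1. The deposited pileup is a signal, the whole tags over a summit with no scaling. Fold enrichment, also deposited, is a ratio to the genome-wide background. The −log10 p-values and −log10 q-values deposited for each peak depend on depth and served only as filters or ranks.

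Heights were divided by the tags after filtering and multiplied by 1000000 (RPM). A gene had 1 TSS from GENCODE 44 lifted to GRCh37, that of the Ensembl canonical transcript or, for 2 members, of the longest one, and a promoter peak was any peak within 1 kb of it. The tallest counted. Ratios used promoters with a peak in both libraries, with Poisson intervals, and regions were shared from 1 bp of overlap. Sequences came from GRCh37. Tags of near-identical paralogs can be lost or split in alignment: 100-base stretches found again elsewhere in the locus made up at most 26.4% of an alpha, 28.7% of a beta and 20.7% of a gamma gene's 1 kb windows. Genes were named by a rule on height, ratio, C type and presence in 1 library. The members, lists and rules were chosen with earlier results of these data known. PECAM1 was not matched. Scripts (Python 3.11.15, numpy 2.4.6, pandas 2.3.3, scipy 1.17.1, matplotlib 3.10.9) were tested on simulated data. Alternatives changed the window, TSS, q filter, depth scaling, height measure, missing peaks, centring and overlap.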

Additional observations from a re-analysis of the deposited data

How the results depend on the processing

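Of 188 values recomputed under 14 settings, 99 summary values and 72 ratios of named members moved little (a count within 1.5 times, a median or ratio within its interval) and kept their direction, except that PCDHGA10 came to 0 without depth scaling (9 tags in each library). For the member and alpha medians the interval was the whole range of the genes, so staying within it is a weak check. Changing the window or the TSS, or asking for the summit within 1 kb, left every promoter value unchanged. Centred on the median of all protein-coding promoters, the median log2 ratio turned to 0.12 for the members and 0.0087 for alpha, and to 0.14 for PCDHA4, 0.44 for PCDHA8, 0.25 for PCDHA11, 0.089 for PCDHB2 and 0.34 for PCDHGA10, as the subtraction of -0.48 makes them. PCDHA8 also turned to 0.11 without depth scaling and 0.022 by fold enrichment. Members at least 2-fold lower numbered 0 without depth scaling, by fold enrichment or when centred, and 3 with missing peaks set to 0.361 RPM. With −log10 q of at least 5, gamma had 1 member with a peak in DMSO and 0 in MAK683, PCDHGA10 was lost, and the locus had 19 MAK683 peaks. With an overlap of 50% of each peak, 15 MAK683 peaks were shared. PCDHAC1 stayed between -1.09 and -0.59 in the 10 alternatives run for it. Low tag counts limit every ratio. No paired analysis was possible because each group had 1 library.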
